A study of Mus musculus with 8 samples.

Results

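The genes for the calcium/calmodulin-dependent protein kinases were followed on 8 arrays of cultured mouse hippocampal neurons. The members were named by gene symbol and looked up in the platform annotation: Camkk1 and Camkk2, Camk1, Camk1d and Camk1g, Camk2a, Camk2b, Camk2d and Camk2g, and Camk4. Of these 10 genes, 9 were measured, among 19938 genes in all, and each of the 9 had 1 transcript cluster (the set of probes that reads a gene along its transcript). No transcript cluster was matched to Camkk1, whose expression is not analysed here. Naming the genes used no measured value, although the family was chosen with earlier results of these data known. Of several clusters the rule takes that with the highest mean signal, a choice that did not arise for these 9 genes.

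The neurons came from embryos of the outbred ICR strain at embryonic day 17.5 and had been kept in culture for 10 days. Bicuculline at 50 µM was given for 0, 30, 180 or 300 min, and each time had 2 biological replicates. Bicuculline blocks GABA-A receptors, so inhibition is lost and the network fires more. RNA was read on Affymetrix Mouse Gene ST 1.0 arrays, and the values are signals on a log2 scale. No vehicle-treated culture was analysed here, so exposure to the drug and the passage of time cannot be told apart. Whether the biological replicates were separate dissections is not stated in the labels, and p-values therefore rest only on how far these arrays differ, which may be technical.

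Calcium that enters a firing neuron binds calmodulin, and calcium-loaded calmodulin switches these kinases on. The upstream CaM kinase kinases phosphorylate and so activate CaMKI and CaMKIV, a cascade that reaches the cytoskeleton and, through CaMKIV in the nucleus, the transcription factor CREB. CaMKII assembles into large holoenzymes whose subunits phosphorylate one another. These holoenzymes can remain active after calcium has fallen and are needed for synaptic plasticity in the hippocampus. All of these steps act on the protein, and the arrays measured the mRNA.

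Promoters are shown because CREB, which CaMKIV phosphorylates, binds the cAMP response element, whose core is TGACG or, on the other strand, CGTCA. The RefSeq promoter table (assembly GRCm38.p6) gave windows from 250 bases before to 50 bases after the start of a gene. Windows were used for 6 of the 9 measured kinase genes, all but Camk2a, Camk2g and Camk4, and 1 of the 6, Camk1, held the core on either strand. Camkk1, which was not measured, also had a window, and it held 1 core. The core was present in 20.8% of all 32851 windows in the table. Windows on 1 chromosome were left out of the counts by gene but kept in the shares of all windows. A gene without a window here may thus have 1 in the table. Of 8 genes known to respond to neuronal activity, listed as a panel for comparison, 6 had a window that was used. All 6 held the core in at least 1 of their windows. The panel genes had 13 used windows, of which 6 held the core, and 7 of the 13 belonged to Bdnf. The measured kinase genes had 7 used windows, of which 1 held it. The full palindrome TGACGTCA stood in 1.79% of all windows and in none of these. The windows of Camk1 (GRCm38.p6, chr6:113343873-113344172, minus strand), of Camk1g (chr1:193370233-193370532, minus strand) and of the panel gene Npas4 (chr19:4989922-4990221, minus strand) are given here 5′ to 3′ along the gene, with each core in capitals. They show the window of the measured kinase gene with the core, a kinase window without it, and the gene with the highest change at 30 min in the panel.
Camk1: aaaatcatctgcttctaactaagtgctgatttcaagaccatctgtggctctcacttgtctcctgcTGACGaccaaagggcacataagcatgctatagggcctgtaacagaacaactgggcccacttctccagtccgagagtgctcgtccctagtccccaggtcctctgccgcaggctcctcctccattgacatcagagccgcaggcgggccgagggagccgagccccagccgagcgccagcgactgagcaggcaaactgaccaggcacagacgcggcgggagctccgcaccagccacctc
Camk1g: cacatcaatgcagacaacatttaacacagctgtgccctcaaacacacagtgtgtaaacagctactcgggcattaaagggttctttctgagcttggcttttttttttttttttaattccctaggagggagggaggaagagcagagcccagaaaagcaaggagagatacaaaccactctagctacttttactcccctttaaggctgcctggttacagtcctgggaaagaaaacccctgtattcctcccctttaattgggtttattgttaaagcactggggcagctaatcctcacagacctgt
Npas4: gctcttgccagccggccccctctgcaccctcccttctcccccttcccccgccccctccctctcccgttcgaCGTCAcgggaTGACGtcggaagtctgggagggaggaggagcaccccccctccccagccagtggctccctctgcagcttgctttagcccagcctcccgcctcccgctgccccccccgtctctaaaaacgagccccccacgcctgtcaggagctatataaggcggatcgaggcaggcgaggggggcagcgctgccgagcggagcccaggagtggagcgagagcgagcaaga
The Camk1 window held 1 core and the Npas4 window held 2, while the Camk1g window held none. A match describes the letters of the window and is not evidence of binding.

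Array medians were 4.84 to 4.88, and replicate arrays correlated across transcript clusters at r = 0.985 to 0.990. All 6 neuronal markers and all 6 inhibitory neuron markers were above the background set by olfactory receptor genes (95th percentile 4.46), as were all 5 measured markers of excitatory neurons and all 6 of astrocytes. Of the 6 microglial markers, Aif1, Csf1r and Cx3cr1 were above it (means 5.13, 4.88 and 5.07) and P2ry12, Itgam and Ptprc were below it. Also above it were 5 of 6 measured markers of the oligodendrocyte lineage and 4 of 5 of fibroblasts and meninges. For endothelial cells and pericytes 3 of 6 were above it, and for dividing cells 2 of 4. The summed level of a marker list was taken as its mean over genes, and for neuronal markers it lay between 9.82 and 10.04 on the 8 arrays. For astrocyte markers it lay between 5.86 and 6.23. Among the excitatory markers, Prox1 was lower by 0.70 and Slc17a6 higher by 0.38 at the late times than at the early times (limma, adjusted p = 0.0007 and 0.0406). The part of such changes in the values below was not tested. Because the cultures were measured in bulk, fewer cells of a type and less RNA per cell cannot be told apart.

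None of the 9 measured kinase genes passed the test at any time of exposure. The largest estimates against 0 min were a difference of −0.25 in Camk2g and of −0.22 in Camk4, both at 180 min, and a difference of 0.18 in Camk1g at 300 min, on the log2 scale. The count of kinase genes called was 0 of 9 at 30 min, where 0.0953% of all genes passed an adjusted p of 0.05. It was also 0 of 9 at 180 min and at 300 min, where 0.331% and 0.286% of all genes passed. At 180 against 30 min it was 0 of 9, with 0.502% of all genes called, and at 300 against 180 min 0 of 9, with 0 of 19938 genes called. At an unadjusted p under 0.05, limma called 0 of 9 kinase genes in each of these comparisons, against 5.11%, 12.8% and 8.96% of all genes at 30, 180 and 300 min relative to 0 min, 10.5% at 180 against 30 min and 5.72% at 300 against 180 min. With shares this small, 0 calls among 9 genes says little by itself, and the intervals of the single genes carry the result. Over all 9 genes, the 95% intervals of the change against 0 min reached no lower than 0.70-fold, for Camk2g at 180 min, and no higher than 1.35-fold, for Camk1g at 300 min. The median size of the change, whatever its sign, was 0.05 at 30 min, 0.11 at 180 min and 0.05 at 300 min for the 9 kinase genes, against 0.09, 0.12 and 0.11 for all genes. Between successive later times it was larger in the kinase genes. It was 0.14 against 0.11 for all genes at 180 against 30 min, and 0.12 against 0.10 at 300 against 180 min.

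**Figure D1:**
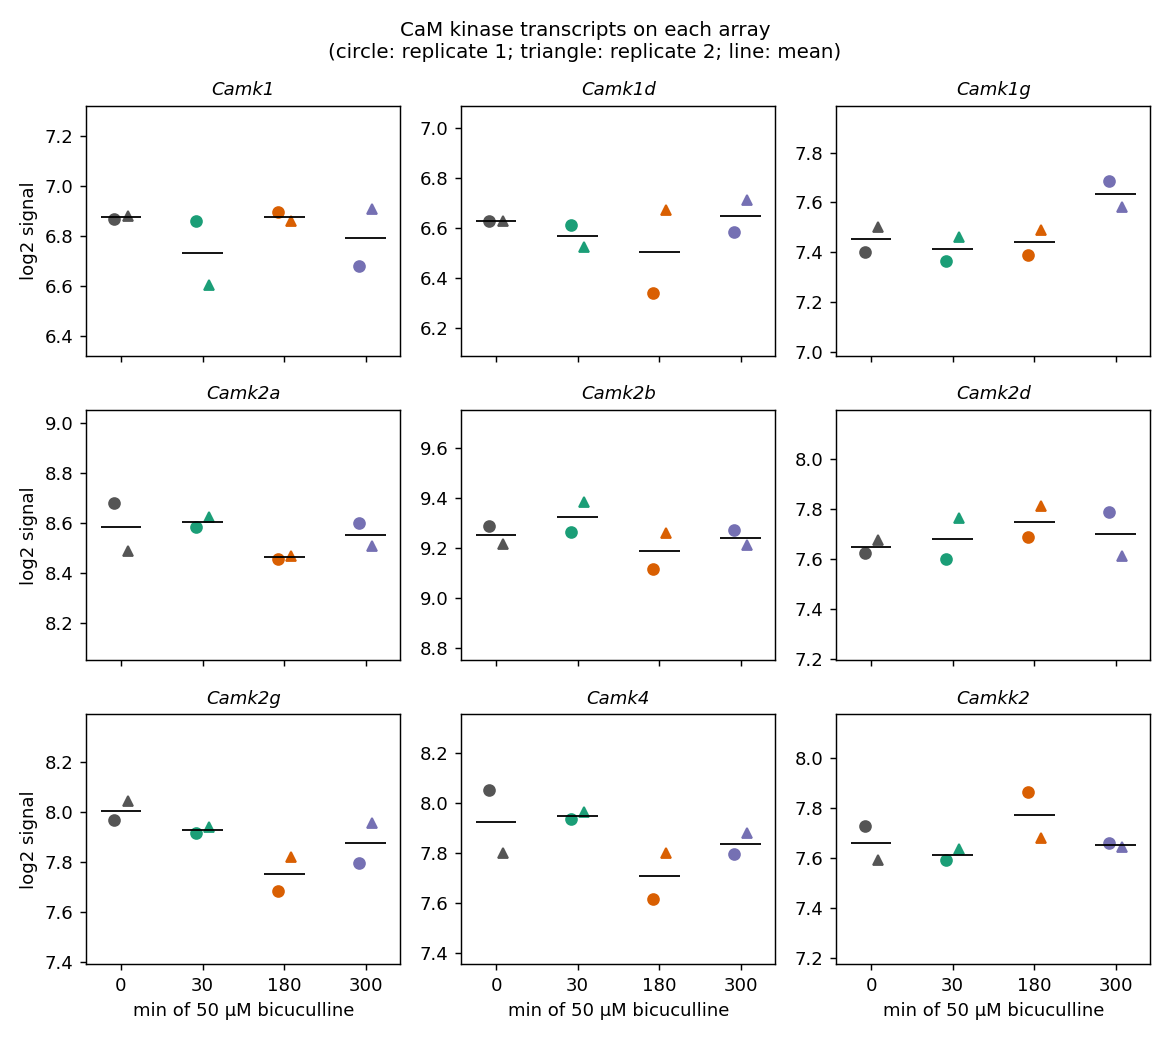
Signal of the 9 measured kinase genes on each array (log2 scale, vertical axis) at 0, 30, 180 and 300 min of bicuculline (horizontal axis). Circles are the first and triangles the second of the 2 replicate arrays, and a short line marks the mean of each time. The time means of a gene spanned between 0.10, in Camk2d, and 0.25, in Camk2g.

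Camkk2 encodes the CaM kinase kinase that activates CaMKI and CaMKIV and also the energy sensor AMPK. Its signal was 7.73 and 7.59 at 0 min, 7.59 and 7.63 at 30 min, 7.86 and 7.68 at 180 min, and 7.66 and 7.64 at 300 min. Its highest array was thus the first replicate at 180 min, and both 180 min arrays lay above both 30 min arrays but not above both 0 min arrays. The change against 0 min was −0.05 at 30 min, 0.11 at 180 min and −0.01 at 300 min, with a standard error (SE) of 0.12 for each. The difference between 180 and 30 min was 0.16 (95% interval −0.10 to 0.42, limma adjusted p = 0.718).

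The CaMKI genes encode monomeric kinases that act in growing axons and dendrites. Camk1 read 6.87 and 6.88 at 0 min, 6.86 and 6.60 at 30 min, 6.89 and 6.86 at 180 min, and 6.68 and 6.91 at 300 min. Both 30 min arrays were below both 0 min arrays, 1 of them only just, and the arrays of 180 and 300 min overlapped those of 0 min. The change at 30 min was −0.14 (SE 0.13, 95% interval −0.42 to 0.13, limma adjusted p = 0.980). Camk1d read 6.63 on both arrays at 0 min, 6.61 and 6.53 at 30 min, 6.34 and 6.67 at 180 min, and 6.58 and 6.71 at 300 min. The gap between its own 180 min replicates was wider than any difference between its time means, which lay between 6.50 and 6.65. The change of Camk1d against 0 min was −0.12 at 180 min (SE 0.13, adjusted p = 0.744).

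Camk1g encodes CaMKIγ, a form anchored to membranes by a lipid tail. Its arrays read 7.40 and 7.50 at 0 min, 7.36 and 7.46 at 30 min, 7.39 and 7.49 at 180 min, and 7.69 and 7.58 at 300 min. Both 300 min arrays were the highest of the 8, and the other 6 arrays overlapped between times. At 300 min the change was 0.18 against 0 min (SE 0.12, 95% interval −0.07 to 0.44, adjusted p = 0.708) and 0.19 against 180 min (95% interval −0.06 to 0.45, adjusted p = 0.859). The interval still allows a level at 300 min up to 1.35-fold that at 0 min.

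Camk2a and Camk2b encode CaMKIIα and CaMKIIβ, the main CaMKII subunits of forebrain neurons, of which the β subunit also binds actin. Camk2a read 8.68 and 8.49 at 0 min, 8.58 and 8.63 at 30 min, 8.46 and 8.47 at 180 min, and 8.60 and 8.51 at 300 min. Both 180 min arrays were the lowest of the 8, though 1 of the 0 min arrays lay just above them. Camk2a differed from 0 min by 0.02 at 30 min, by −0.12 at 180 min (SE 0.12, 95% interval −0.38 to 0.14, adjusted p = 0.720) and by −0.03 at 300 min. Camk2b read 9.29 and 9.22 at 0 min, 9.26 and 9.38 at 30 min, 9.12 and 9.26 at 180 min, and 9.27 and 9.21 at 300 min. All 3 later times overlapped 0 min in Camk2b, and its changes lay between −0.06 and 0.07 (SE 0.12).

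Camk2d encodes CaMKIIδ, a subunit found in many tissues and best known from heart muscle. It read 7.62 and 7.68 at 0 min, 7.60 and 7.76 at 30 min, 7.69 and 7.81 at 180 min, and 7.79 and 7.61 at 300 min. Both 180 min arrays were above both 0 min arrays, 1 of them only just, and the change was 0.10 (SE 0.12, 95% interval −0.17 to 0.36, adjusted p = 0.783). Its time means spanned less than those of any other kinase gene measured.

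Camk2g encodes CaMKIIγ, a subunit reported in rodent neurons to carry calmodulin to the nucleus. It read 7.97 and 8.04 at 0 min, 7.92 and 7.94 at 30 min, 7.68 and 7.82 at 180 min, and 7.80 and 7.96 at 300 min. Every later array was below both 0 min arrays, and both 180 min arrays were below both 30 min arrays. The change at 180 min was −0.25, or 0.839-fold (SE 0.12, 95% interval −0.51 to 0.0036), the largest of any kinase gene measured in the comparisons against 0 min. It did not pass the threshold (limma adjusted p = 0.398). At 30 and 300 min the change was −0.08 and −0.13. In order of level the times ran 180, 300, 30 and 0 min, and no pair of them differed past the adjusted threshold in the comparisons made. In a test over all 4 times Camk2g had the smallest p of the 9 kinase genes, with an adjusted p of 0.690, and 34.7% of all genes had a smaller p; 0 of 9 kinase genes were called in that test, against 0.813% of all genes (11% at an unadjusted p under 0.05).

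Camk4 encodes CaMKIV, the nuclear member that phosphorylates CREB. Its signal was 8.05 and 7.80 at 0 min, 7.94 and 7.96 at 30 min, 7.62 and 7.80 at 180 min, and 7.80 and 7.88 at 300 min. The 0 min replicates of Camk4 stood far apart for this gene and spanned most of the other values, while both 180 min arrays lay below both 30 min arrays. The change was 0.02 at 30 min, −0.22 at 180 min (SE 0.13, 95% interval −0.49 to 0.06, adjusted p = 0.508) and −0.09 at 300 min. Without the first 0 min array the change of Camk4 at 180 min was −0.09, and without the second it was −0.34. Between 180 and 30 min it was −0.24 (95% interval −0.52 to 0.03, adjusted p = 0.558).

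**Figure D2:**
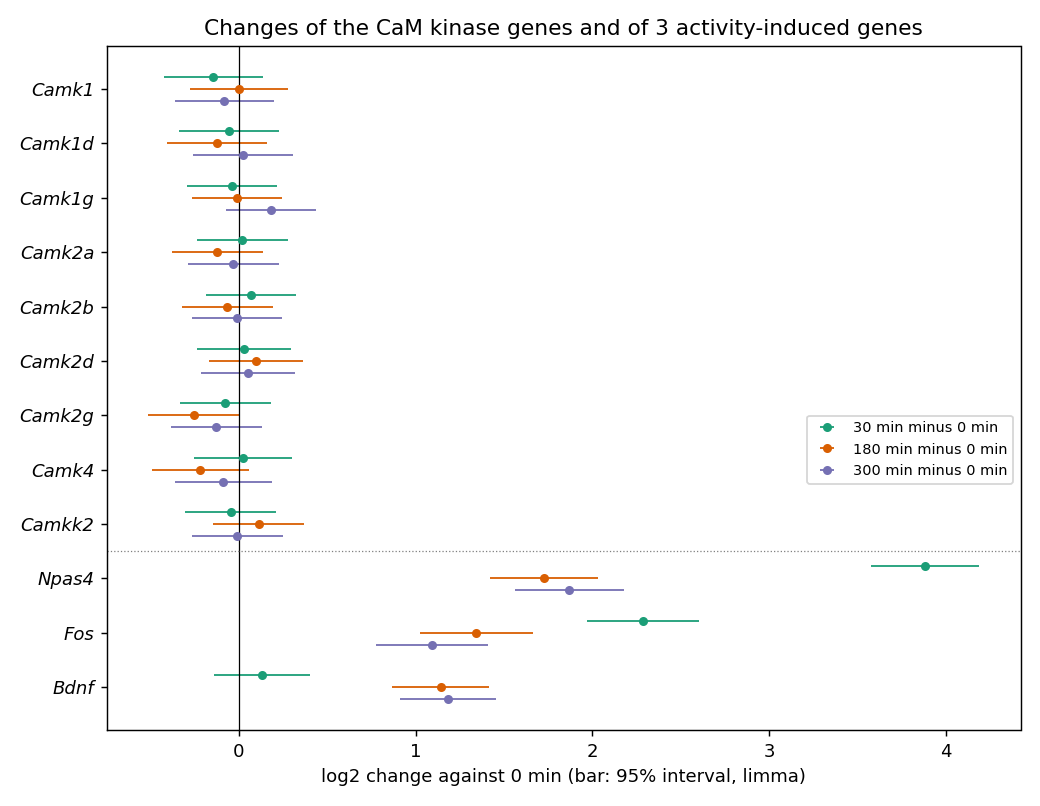
Change of each measured kinase gene, and below them of Npas4, Fos and Bdnf, against 0 min at 30, 180 and 300 min (log2 scale), with 95% intervals from the limma model. Every interval of a kinase gene crosses 0, by the least for Camk2g at 180 min (upper bound 0.0036). The intervals of the kinase genes all lie between −0.51 and 0.44.

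A single array weighed on several of these values. The first replicate at 180 min was the lowest of the 8 arrays for 5 of the 9 kinase genes (Camk1d, Camk2a, Camk2b, Camk2g and Camk4) and the highest for Camkk2. It was the lowest for 18.6% of all genes and for 22.7% of the genes above background, where all 9 kinase genes were. Without it, the change at 180 min against 0 min was −0.19 in Camk2g, −0.12 in Camk4, −0.12 in Camk2a, 0.04 in Camk1d, 0.0060 in Camk2b and 0.02 in Camkk2. The mean of the neuronal markers was 9.82 and 9.93 on the 180 min arrays, against 9.93 and 10.04 on the 0 min arrays, and that of the excitatory markers was 7.57 and 7.63 at 180 min, against 7.67 and 7.76 at 0 min. The means of these 2 lists were thus lowest at the time when Camk2g, Camk4 and Camk2a were lowest. Single excitatory markers went both ways, with changes between −0.59 and 0.36 at 180 against 0 min. The mean of the inhibitory neuron markers was highest at 180 min, at 8.28 and 8.30, against 8.22 and 8.23 at 0 min. The part of any of these markers in the kinase values was not tested. The replicate arrays did not overlap, in either direction, for 3 of the 9 kinase genes between 30 and 0 min, 3 between 180 and 0 min and 2 between 300 and 0 min, while this was so for 37.5%, 43.6% and 38.4% of all genes. Between 180 and 30 min it was so for 5 of the 9 (40.6% of all genes), and between 300 and 180 min for 3 (33.1%). The profile most like that of Camk2g over the 8 arrays belonged to Mapre2 (Pearson r = 0.984), followed by Fut8, Rmnd5a, Fig4 and Pgrmc2 (r = 0.972), found by ranking all genes and given as a description.

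The mean of the 180 and 300 min arrays was also set against that of the 0 and 30 min arrays, which puts 4 arrays on each side. Here 2.22% of all genes were called and 0 of 9 kinase genes. The changes lay between −0.17 in Camk4 (95% interval −0.36 to 0.03, adjusted p = 0.451) and 0.10 in Camk1g (adjusted p = 0.648), and Camk2g differed by −0.15 (adjusted p = 0.460). The 4 late and the 4 early arrays did not separate for any of the 9, and they did for 8.82% of all genes. This comparison reuses the arrays of the others and is not independent of them.

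The activity panel was measured on the same arrays. Npas4, a transcription factor induced by calcium entry, read 5.67 and 5.96 at 0 min, 9.67 and 9.72 at 30 min, 7.65 and 7.43 at 180 min, and 7.54 and 7.83 at 300 min. All 6 exposed arrays were above both 0 min arrays, and Npas4 rose 14.7-fold at 30 min (log2 change 3.88, SE 0.14). Of the 8 panel genes, 6 rose at 30 min, 6 at 180 min and 6 at 300 min. Fos, a subunit of the AP-1 factor, rose by 2.29, 1.34 and 1.09 on the log2 scale at 30, 180 and 300 min, and Bdnf, a neurotrophin, rose by 1.14 at 180 min and 1.18 at 300 min. Arc, which governs AMPA receptor endocytosis, rose by 2.38 at 30 min and differed from 0 min by 0.03 at 180 min. Fosb rose by 2.74, 2.50 and 2.53 at 30, 180 and 300 min. Egr1 rose by 1.32 at 30 min, and its later changes were −0.52 at 180 min and −0.59 at 300 min, which did not pass. Late against early, 3 panel genes were called higher and 2 lower, and Egr1 was among the latter at −1.21. Changes of the panel that did not pass also included 0.13 in Bdnf and −0.12 in the synaptic scaffold gene Homer1 at 30 min. Some later calls depended on single arrays. Homer1 at 180 min (0.72) lost its call without either 0 min array, either 30 min array or the first 180 min array, with an adjusted p up to 0.134, and Nr4a1 at 180 min lost it without the first array at 0 min (0.109) or at 180 min (0.0833). At 300 min Fos and Nr4a1 lost theirs without the first 0 min array (0.0743 and 0.0699), and Homer1 without the second (0.0676). With every transcript cluster tested, 0 of the 6 calls at 180 min and 1 of the 6 at 300 min, that of Npas4, were kept.

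Genes around the kinases in the pathway were described from 7 lists with 99 measured genes of 105 listed. Against 0 min, 0 of 99 were called at 30, 180 or 300 min, and at an unadjusted p under 0.05 limma called 4, 14 and 14 of them (4.04%, 14.1% and 14.1%), against 5.11%, 12.8% and 8.96% of all genes. Late against early, 3 of 99 passed, 1 higher and 2 lower, beside 2.22% of all genes, and 21.2% had an unadjusted p under 0.05, against 14.3% of all genes. A count of 3 among 99 is near the share of all genes, so the called genes are described singly and nothing is read from their number. The medians of the 7 lists in that comparison lay between −0.03 and 0.04.

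The lists of related kinases, of inhibitors and phosphatases, of calmodulin genes and buffers, and of calcineurin and its regulators had no member called in any comparison. Among the 19 related kinases, the late changes ran from −0.31 in Dclk3, a doublecortin-like kinase (limma adjusted p = 0.0883), to 0.18 in Pnck (0.490). In Camkv, a catalytically inactive relative, the late change was −0.02. Among the 10 inhibitors and phosphatases, it was −0.08 for Camk2n1 and −0.01 for Camk2n2, both inhibitors of CaMKII, and 0.0077 for Ppm1f, the phosphatase that reverses CaM kinase activation. The largest change of that list against 0 min was 0.41, in Ppp1r1b at 300 min, and it was not called. Of the 11 measured genes for calmodulin and for proteins that bind calmodulin or calcium, Calm2 differed late against early by −0.04 and Calm3 by −0.10. Both encode the same calmodulin protein. Of the 14 genes listed for calcineurin and its regulators, Ppp3ca, a catalytic subunit, differed by −0.12 (adjusted p = 0.553). The values of Camkv, Camk2n1, Camk2n2, Ppm1f, Calm2 and Calm3 are given for their roles.

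The 3 called genes are each described here by their values. Grin2b, the NMDA receptor subunit that binds CaMKII at the synapse, read 7.54 and 7.86 at 180 min and 7.73 and 7.48 at 300 min, against 8.61 and 7.91 at 0 min and 8.58 and 8.42 at 30 min. Every late array of Grin2b was below every early array, and it fell by 0.73 (SE 0.14, adjusted p = 0.0116). Lrrc7, which encodes the CaMKII-binding postsynaptic scaffold densin, read 7.01 and 7.28 at 180 min and 7.30 and 7.24 at 300 min, against 7.98 and 7.46 at 0 min and 7.82 and 7.62 at 30 min. Its late and early arrays did not overlap either, and it fell by 0.51 (SE 0.11, adjusted p = 0.0326). Crtc2, a CREB coactivator, read 5.68 and 6.03 at 180 min and 6.01 and 6.05 at 300 min, against 5.54 and 5.75 at 0 min and 5.42 and 5.41 at 30 min. Crtc2 rose by 0.41 (SE 0.10, adjusted p = 0.0395), though its lowest late array was below its highest early one.

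The 3 calls depended on single arrays. With 1 array left out, Crtc2 still passed when that array was the second replicate at 0 min or the first at 180 min, and without any other array its adjusted p was 0.0997 to 0.167. Lrrc7 still passed when it was the second replicate at 0 or at 180 min, and without any other array its adjusted p was 0.0635 to 0.172. Grin2b lost the call without the first replicate at 30 min (adjusted p = 0.0724), the first at 180 min (0.0508) or the second at 300 min (0.0578), with a change between −0.90 and −0.56 over all 8 omissions. The other genes of the pathway lists did not pass. Among them was Crebbp, the CREB-binding acetyltransferase, at −0.39 (adjusted p = 0.0578). Among AMPK subunits, which Camkk2 activates, Prkaa1 differed by −0.33 (adjusted p = 0.127).

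**Figure D3:**
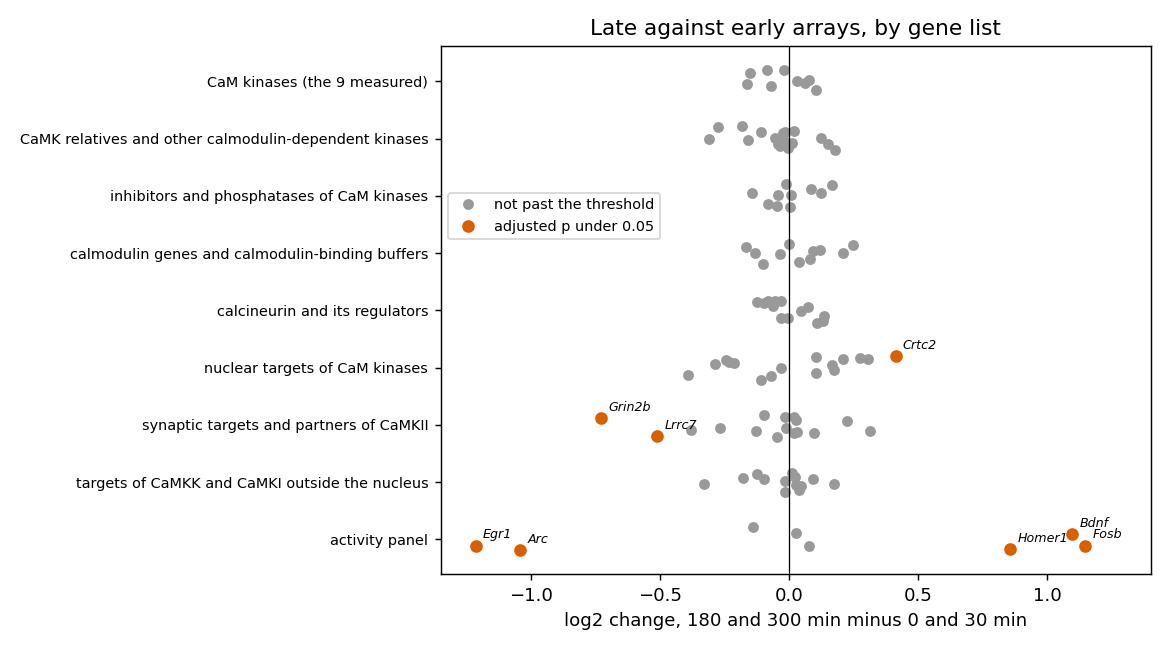
Late minus early change (mean of 180 and 300 min minus mean of 0 and 30 min, log2 scale, horizontal axis) of the kinase genes, the 7 pathway lists and the activity panel, with 1 point per gene and called genes marked. The 9 kinase genes lie between −0.17 and 0.10, while Grin2b lies at −0.73.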

How the data were processed

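RNA of 8 cultures was read on 1-colour Affymetrix arrays, 2 at each of 4 times. The authors deposited log2 values, 1 for each transcript cluster on each array (base taken from the values, 1.22 to 14.96). How the authors corrected background, summarised probes and normalised, with which software and on which build, is not given in the sources used here, and no further normalization was applied. Of 35399 transcript clusters, 21789 had 1 symbol in the platform annotation and 21698 of these matched RefSeq (GRCm38.p6) by gene number. A gene with several clusters (999 genes) was represented by that with the highest mean, which left 19938 genes. Background was the 95th percentile of 1027 olfactory receptor genes.

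A mean per time was fitted to all 8 arrays with limma 3.58.1 in R 4.3.3 (4 residual degrees of freedom, prior degrees of freedom 10.1), two-sided, with Benjamini-Hochberg adjustment over all genes and a threshold of 0.05. The model was tested on simulated data. The number of arrays limits the precision. The kinase genes and the lists were chosen with earlier results of these data known. Named were all members, the activity panel, and of each list the genes called against 0 min or late against early. Up to 4 genes of each list with the smallest F test p were also picked, and only some of these are named. A few genes outside this rule are given for their role. Alternatives were quantile and median scaling, a filter on dim genes, every cluster tested singly, a trended robust prior, only the compared times, a replicate block and leaving out each array. Replicates of a group were not paired.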

Additional observations from a re-analysis of the deposited data

How the results depend on the processing

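No kinase gene passed the threshold in any of 766 values computed under 16 alternative settings, the lowest adjusted p being 0.313, and 31 values changed sign, all of estimates no larger than 0.12. The replicate block, a hint only since no pair of times had replicate differences correlated over 0.1, called 53, 49 and 87 genes at 180 and 300 min against 0 min and at 180 against 30 min, and 0 kinase genes. The number of genes called at 180 min was 102 with dim genes left out, 1 with every cluster tested, 108 with a trended robust prior and 19 with only the compared times. At 300 min it was 99, 5 and 91 under the first 3 of these. Between 180 and 30 min every cluster gave 9, the trended prior 156 and the compared times 55. Late against early, every cluster gave 40 genes, and the F test gave 13 with every cluster and 255 with the trended prior. With every cluster tested, the adjusted p of Grin2b, Crtc2 and Lrrc7 was 0.181, 0.210 and 0.227, and median centring gave 0.0546 for Crtc2. Leaving out 1 array at a time gave 12 to 21 genes at 30 min, 15 to 68 at 180 min, 17 to 61 at 300 min, 17 to 93 between 180 and 30 min, 0 to 14 between 300 and 180 min, 154 to 372 late against early and 49 to 171 in the F test. Over the same omissions the change against 0 min at 30 min ran from −0.090 to 0.010 in Camk1g, −0.075 to 0.11 in Camk2a, −0.050 to 0.11 in Camk2d, −0.10 to 0.15 in Camk4 and −0.11 to 0.021 in Camkk2. At 180 min it ran from −0.017 to 0.019 in Camk1, −0.29 to 0.043 in Camk1d, −0.063 to 0.038 in Camk1g and −0.13 to 0.0060 in Camk2b. At 300 min it ran from −0.20 to 0.033 in Camk1, −0.043 to 0.086 in Camk1d, −0.13 to 0.063 in Camk2a, −0.046 to 0.025 in Camk2b, −0.039 to 0.14 in Camk2d, −0.21 to 0.038 in Camk4 and −0.076 to 0.058 in Camkk2. Without a change of sign, Camk1 at 30 min ran from −0.27 to −0.016 and Camk2a at 180 min from −0.22 to −0.026. Late against early it ran from −0.032 to 0.096 in Camk1, −0.10 to 0.061 in Camk1d, −0.0012 to 0.17 in Ppp1cb and −0.13 to 0.080 in Stk17b. Quantile scaling turned Camk1g at 180 min to 0.049 and Camkk2 at 300 min to 0.017, and median centring turned Camk1 at 180 min to −0.038 and Camk1d at 300 min to −0.0021. The cause of these differences was not tested.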
